A study of Mus musculus with 5 samples.

Results

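The report describes 9 genes for ion channels that respond to chemical, mechanical or ionic stimuli: Trpa1, Trpm2, Trpm4, Trpm7, Trpc4, Trpv6, Piezo1, Piezo2 and Asic5. The rule picks the genes by name and not by a measured value, although it was written with earlier results of these data known. It groups the droplet cells by their measured levels of Cck, Tph1, Tac1, Gip, Ghrl and Sst. All 9 genes were present among the 22042 genes of the bulk table and the 27998 genes of the droplet matrix. The samples came from the small intestine epithelium of C57Bl/6J mice. For the bulk data, 6 mice aged 6 to 8 weeks carried Cck-Cre; R26-LSL-tdTomato, and each library held the tdTomato+ cells (CCK+) or the tdTomato- cells (CCK-) of 1 mouse. A CCK+ and a CCK- library that share a letter were taken to be from the same mouse, which the labels do not state. There were 3 mice fasted overnight (A, B and F) and 3 mice fasted and then refed with Ensure (C, D and E), which makes 4 groups of 3 libraries. For the droplet data, tdTomato+ cells of 4 untreated Neurog3-Cre; R26-LSL-tdTomato mice aged 6 weeks were pooled in 1 library. Both reporters are permanent marks of past Cre activity, so a labeled cell need not express Cck or Neurog3 when it is collected, and cells of the Neurog3 lineage include many that are not enteroendocrine cells (EECs).

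Channels of the TRP family are cation channels opened by chemicals, second messengers or temperature, Piezo channels open when the membrane is stretched, and Asic5 belongs to the acid-sensing channel family and is gated by bile acids. Enterochromaffin (EC) cells, the EECs that make serotonin with the enzyme Tph1, are known for the irritant receptor Trpa1 and the force sensor Piezo2. Trpv6, in contrast, is a calcium uptake channel of the absorptive epithelium, and Trpm4 and Trpm7 are widely expressed.

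In the GENCODE annotation of GRCm38, Trpa1 lies on the minus strand of chromosome 1, from 14872648 to 14918862. Trpm2 lies on the minus strand of chromosome 10 from 77907722 to 77970563, Trpm4 on that of chromosome 7 from 45302632 to 45333780 and Trpm7 on that of chromosome 2 from 126791565 to 126876230. Trpc4 (54156035 to 54318471) and Asic5 (81982290 to 82021233) are both on the plus strand of chromosome 3. Trpv6 lies on the minus strand of chromosome 6, from 41620624 to 41636405. Piezo1 covers 122481698 to 122551329 on the minus strand of its chromosome, where all 9935 bases of its exons lie within the span, introns included, of Gm20388 and 2441 of them within that of Ctu2, both on the other strand. Reads of Piezo1 and of exons that these genes have there cannot be told apart without strand.

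Trpa1, Trpm2, Trpc4 and Asic5 had far higher levels in CCK+ than in CCK- libraries, with values given below. The 250 bases before the RefSeq start site (GRCm38.p6) are shown for the 3 of them with an entry in the promoter table, written 5′ to 3′ on the strand of the gene, because these genes were high in the same sorted libraries. Capitals mark CANNTG, the E-box bound by many basic helix-loop-helix factors, which reads the same motif on both strands. The windows are chr10:77969873-77970122 for Trpm2, chr3:54155807-54156056 for Trpc4 and chr3:81996672-81996921 for Asic5. These RefSeq starts lie 691, 22 and 14632 bases inside the GENCODE genes given above, so that the Trpm2 and Asic5 windows are within those genes as GENCODE draws them.
Trpm2: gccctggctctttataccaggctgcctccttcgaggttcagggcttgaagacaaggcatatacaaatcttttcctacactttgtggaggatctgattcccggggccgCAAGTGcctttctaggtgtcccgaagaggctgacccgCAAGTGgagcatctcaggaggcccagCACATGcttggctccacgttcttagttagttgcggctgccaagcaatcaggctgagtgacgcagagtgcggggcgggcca
Trpc4: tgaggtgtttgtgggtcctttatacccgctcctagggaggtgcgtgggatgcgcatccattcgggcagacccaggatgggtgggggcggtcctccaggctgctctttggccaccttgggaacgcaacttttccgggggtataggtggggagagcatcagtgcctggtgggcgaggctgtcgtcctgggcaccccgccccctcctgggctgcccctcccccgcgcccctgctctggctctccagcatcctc
Asic5: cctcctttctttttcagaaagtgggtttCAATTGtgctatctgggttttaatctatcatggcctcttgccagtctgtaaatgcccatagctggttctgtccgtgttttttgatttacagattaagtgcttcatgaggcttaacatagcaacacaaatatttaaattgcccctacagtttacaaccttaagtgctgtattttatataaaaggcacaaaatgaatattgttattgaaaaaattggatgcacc
The motif occurred 3 times before Trpm2, 0 times before Trpc4 and 1 time before Asic5, and 66.2% of all 32851 promoter windows of this length hold it. Its forms CAGATG and CAGCTG, each searched on both strands and each a subset of CANNTG, occurred before none of these 3 genes and in 14.4% and 13.0% of all windows. No form of the motif was thus common to all 3 windows.

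The first comparison asks which channel genes mark CCK+ cells. On the log2(normalized count + 1) scale, tested with limma over all 22042 genes with Benjamini-Hochberg adjustment, Trpa1, Trpm2, Trpc4 and Asic5 were higher in CCK+ than in CCK- libraries by 4.82 to 6.17. Trpm4, Trpm7 and Trpv6 were lower, by 0.71 to 1.72. Piezo1 and Piezo2 did not pass the threshold of an adjusted p of 0.05. Thus 4 of 9 members were higher, where 19.6% of all genes were, and 3 of 9 were lower, where 14.1% of all genes were. The median difference was 0.78 over the members and 0.09 over all genes tested.

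**Figure D1:**
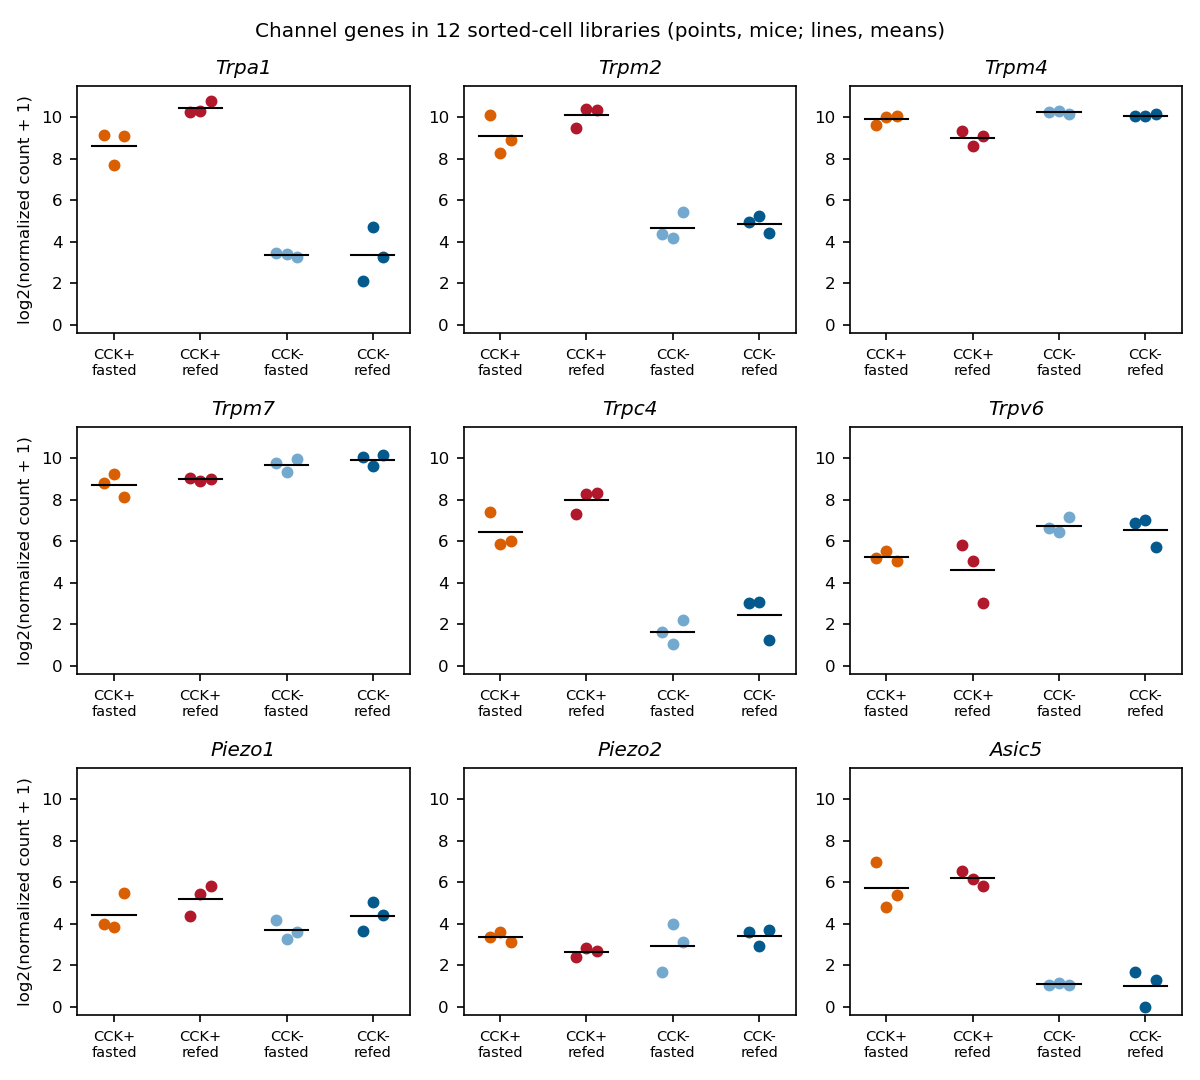
Levels of the 9 channel genes, as log2(normalized count + 1), in the 12 sorted-cell libraries; each point is 1 mouse and each line the mean of 3. Trpa1, Trpm2, Trpc4 and Asic5 sit far above their CCK- level in all CCK+ libraries, Trpm4 and Trpm7 sit below that of the same state, and Piezo2 is low everywhere.

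Trpa1, the receptor for irritants such as mustard oil, had the largest difference among the members. Its normalized counts in CCK+ cells were 555, 204 and 544 in fasted mice A, B and F and 1220, 1269 and 1780 in refed mice C, D and E. In CCK- cells they were 10.0, 9.50 and 8.72 in mice A, B and F and 3.25, 25.4 and 8.74 in mice C, D and E. The lowest CCK+ library, that of mouse B, was still far above the highest CCK- library, so the groups did not overlap in either state. The difference was 6.17 ± 0.37 (SE; 95% interval 5.38 to 6.97; limma adjusted p = 2.16e-08), a 72.0-fold higher level.

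Trpm2, a calcium-permeable channel gated by ADP-ribose under oxidative stress, was high in the same libraries. Its normalized counts in CCK+ cells were 1101, 312 and 470 in fasted mice A, B and F and 712, 1358 and 1319 in refed mice C, D and E, whereas the CCK- libraries held 17.3 to 41.7. All CCK+ libraries thus stood above all CCK- libraries, with mouse B lowest among them, as for Trpa1. The difference was 4.82 ± 0.31 (limma adjusted p = 4.26e-08).

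Trpc4, a canonical TRP channel opened downstream of phospholipase C, was present at 167, 58.0 and 63.4 normalized counts in the CCK+ cells of fasted mice A, B and F and at 158, 313 and 324 in those of refed mice C, D and E. The CCK- libraries held 1.09 to 7.34, again with no overlap, and the difference was 5.17 ± 0.42 (limma adjusted p = 3.75e-07). Asic5, the bile acid-sensitive channel, was present at 123, 27.3 and 40.5 in fasted mice A, B and F and at 93.3, 71.2 and 55.8 in refed mice C, D and E. In CCK- cells it was at 0 to 2.17, with mouse D listed at 0. The groups did not overlap, and the difference was 4.92 ± 0.44 (limma adjusted p = 1.16e-06), which the added count of 1 makes smaller than the ratio of the levels.

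The 3 members that were lower in CCK+ cells were changed much less. Trpm4, a channel for monovalent cations opened by intracellular calcium, averaged 958 ± 159 (SD, n = 3) normalized counts in fasted and 525 ± 134 in refed CCK+ cells, against 1208 ± 59.7 and 1075 ± 42.2 in CCK- cells. Trpm7, a magnesium-permeable channel fused to a kinase, averaged 440 ± 155 and 504 ± 23.9 in CCK+ cells and 833 ± 183 and 985 ± 185 in CCK- cells, in the same order. For both genes every CCK+ library stood below every CCK- library of the same state.

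The differences were -0.71 ± 0.13 for Trpm4 (limma adjusted p = 0.000705) and -0.95 ± 0.17 for Trpm7 (limma adjusted p = 0.000596). Trpv6 ranged from 7.1 to 54.8 normalized counts in CCK+ cells and from 51.8 to 141 in CCK- cells, with an overlap in refed mice only, and differed by -1.72 ± 0.40 (limma adjusted p = 0.00371). When libraries were scaled to equal sums, which moved the median of all genes from 0.09 to 0.35 and the higher calls from 4324 of 7431 to 6511 of 7743, the difference of Trpm4 was -0.31 (adjusted p = 0.0602) and that of Piezo1 was 1.16 (adjusted p = 0.0493). The calls of Trpm7 and Trpv6 held under that scaling, at -0.56 and -1.33.

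The mechanically gated channels were low in both cell populations. Piezo1 ranged from 13.2 to 56.1 normalized counts in CCK+ and from 8.68 to 32.0 in CCK- libraries, and differed by 0.78 (95% interval -0.09 to 1.65; limma adjusted p = 0.163). Piezo2 ranged from 4.26 to 10.9 in CCK+ and from 2.22 to 14.6 in CCK- libraries, and differed by -0.17 (95% interval -1.10 to 0.76; limma adjusted p = 0.801). The libraries overlapped for Piezo1 in both states and for Piezo2 in fasted mice. In refed mice Piezo2 was at 4.26 to 6.18 in CCK+ and at 6.485 to 11.9 in CCK- libraries, without overlap. That difference of -0.755 did not pass (limma adjusted p = 0.42). The interval for Piezo2 over both states leaves out a rise as large as that of any of the 4 high members.

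Each state alone gave the same 4 higher genes. In fasted mice 4 members were higher (11.2% of all genes) and 1, Trpm7, was lower (7.05% of all genes), whereas in refed mice 4 were higher (15.3%) and Trpm4, Trpm7 and Trpv6 were lower (10.6%). The differences of Trpa1 were 5.25 ± 0.52 in fasted and 7.09 ± 0.52 in refed mice. The call of Trpm7 in fasted mice was lost without either library of mouse A or F (limma adjusted p of 0.0617 to 0.076), and that in refed mice without the CCK+ library of mouse D or the CCK- library of mouse C or E (0.0516 to 0.0658). The call of Trpv6 in refed mice was lost without the CCK+ library of mouse A, D or E or the CCK- library of mouse C or D (0.0551 to 0.106). All 3 of these calls were also lost with equal library sums (adjusted p of 0.0768, 0.15 and 0.0605), and that of Trpm7 in fasted mice without the mean-variance trend (0.0554).

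Levels were compared between the genes per kilobase of merged GENCODE exons. In CCK+ cells the median over the 6 libraries was 208 normalized counts per kilobase for Trpa1 (47.9 to 418), 72.8 for Trpm2, 65.9 for Trpm4, 43.9 for Trpm7, 27.5 for Asic5, 20.2 for Trpc4, 8.55 for Trpv6, 3.08 for Piezo1 and 0.40 for Piezo2. Neighbors in this order overlapped in range except for Piezo1 and Piezo2, whose ranges were 1.33 to 5.65 and 0.25 to 0.64. In CCK- cells Trpm4 led with a median of 104.7, followed by Trpm7 at 82.2 and Trpv6 at 27.5, and the other 6 members had medians of 0.35 to 2.14. By this measure the highest member was thus Trpm4 in CCK- cells and Trpa1 in CCK+ cells. The order depends on the merged exon lengths, which were 4.263 kilobases for Trpa1, 12.459 for Trpm2 and 10.826 for Trpm4. Without the division, the means in CCK+ libraries were closer, at 928.6, 878.7 and 741.2 normalized counts.

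The sorted fractions differed in more than the channels. Cck itself was at 14840 to 32590 normalized counts in CCK+ and at 27.6 to 86.0 in CCK- libraries, and Tph1 was at 4994 to 21360 and 100 to 222. Of 10 immune markers, 9 were higher in CCK+ libraries, with summed levels of 7783 to 13600 against 3001 to 9561, and of 6 enterocyte markers 4 were lower, with sums of 113100 to 281400 against 255000 to 390700. Of 9 markers of stroma, muscle, endothelium and nerve, 3 were higher, with sums of 1287 to 1742 against 1237 to 1637, whereas Col3a1 was at 0 in all refed libraries and Elavl4 in all CCK- libraries. Of 6 goblet markers 2 were lower, with sums of 18980 to 36770 against 23100 to 48220. Among 5 crypt markers 3 were higher, with sums of 1727 to 4204 against 1191 to 2767, and no Paneth or tuft marker was called. Over all genes 19.6% were higher and 14.1% lower. The part of these cells in the differences was not tested, and in bulk libraries fewer cells of a type and less RNA per cell cannot be told apart.

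Other members of the same families were tested as a list of 26 genes, of which 24 were in the table. CCK+ libraries had higher levels of 7 of them and lower levels of 5, where 19.6% of all genes were higher and 14.1% lower, and 12 did not pass. The differences of the higher genes were 5.20 for Trpc5, 3.90 for Trpc7, 2.47 for Asic2, 1.67 for Trpc1, 1.20 for Asic4, 0.96 for Asic1 and 0.96 for Pkd2. Trpc5 and Trpc7, which like Trpc4 are canonical TRP channels, averaged 65.5 and 80.5 normalized counts in CCK+ and 1.15 and 4.30 in CCK- libraries. The lower genes were Mcoln3 (-1.38), Trpv3 (-1.05), Mcoln2 (-0.99), Pkd2l2 (-0.87) and Mcoln1 (-0.45), of which the Mcoln genes encode channels of lysosomes. Asic2 and Asic4 averaged under 10 normalized counts in either fraction.

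The second comparison asks whether feeding state altered these genes. In CCK+ cells Trpm4 alone passed the test, and it fell by 0.89 ± 0.19 (limma adjusted p = 0.0224) after refeeding. Its normalized counts were 775, 1043 and 1056 in fasted mice A, B and F and 651, 384 and 539 in refed mice C, D and E, so that all refed mice stood below all fasted mice. Of the 9 members 1 was called, where 2.55% of all genes were called in either direction and 1.23% were lower. The call was lost without the CCK+ library of mouse B, F, D or E or the CCK- library of mouse D, with limma adjusted p of 0.052 to 0.111, and with no mean-variance trend (0.122). Enterocyte marker sums in CCK+ libraries were 166300 to 281400 in fasted and 113100 to 181400 in refed mice, and their part in the fall of Trpm4 was not tested.

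Trpa1 had the largest refed minus fasted difference in CCK+ cells, 1.83 ± 0.52, but with an adjusted p of 0.0877 by limma it did not pass (unadjusted p = 0.00363). All 3 refed mice (1220 to 1780 normalized counts) stood above all 3 fasted mice (204 to 555). With 10 added to each value in place of 1, the adjusted p was 0.0347 and the difference 1.80. Trpc4 (1.56, limma adjusted p = 0.194) and Trpm2 (0.99, limma adjusted p = 0.267) were also higher on average in refed mice, with overlap between mice, and the values for Asic5, Piezo1, Piezo2, Trpm7 and Trpv6 lay between -0.70 and 0.78 with adjusted p of 0.533 or more. Of these, Piezo2 did not overlap between states, at low counts of 4.26 to 6.18 in refed against 7.65 to 10.9 in fasted mice. How many of all genes separate in this way between 3 and 3 mice was not counted, so the lack of overlap is only a description.

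The summed level of 6 pan-EEC markers moved in the same direction, from 61150 to 139600 in fasted to 167200 to 230700 in refed CCK+ libraries, with mouse B lowest. Per 10000 counts of these markers, Trpa1 was at 39.8, 33.4 and 54.2 in mice A, B and F and at 73.0, 55.0 and 84.6 in mice C, D and E. The states still did not overlap for Trpa1, by the margin between 54.2 and 55.0. For Trpm2 they overlapped fully, at 46.8 to 78.9 against 42.6 to 62.7. Tac1, which droplets show beside Trpa1, was at 127 to 307 normalized counts in fasted and at 330 to 826 in refed CCK+ libraries, and the sums of 5 crypt markers were 1727 to 3086 and 3203 to 4204. Most of the pan-EEC sum was Chgb, whose droplet level was 569 UMIs per 10000 in Tph1 cells with Tac1 and 85.0 in Cck-high cells. The part of EEC content, of the mix of EECs and of crypt cells in the Trpa1 difference was not tested.

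**Figure D2:**
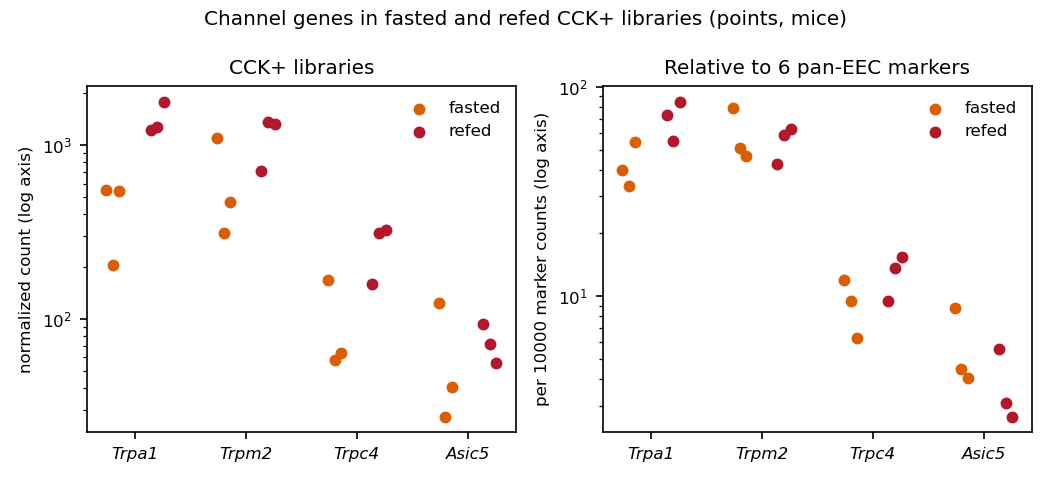
Normalized counts of Trpa1, Trpm2, Trpc4 and Asic5 in CCK+ libraries of fasted and refed mice (left, log axis) and the same values per 10000 counts of 6 pan-EEC markers (right, log axis); each point is 1 mouse. Refed mice lie above fasted mice for Trpa1 on both axes, with 54.2 next to 55.0 on the right, whereas the other 3 genes overlap on both.

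Trpm4 was also lower in all refed than in all fasted CCK- libraries, at 1050 to 1124 against 1144 to 1262, a difference of -0.17 that did not pass. In CCK- cells refeeding changed 0 of 9 members by limma, where 1.23% of all genes were called, and 0 had an unadjusted p under 0.05, where 11.95% of all genes did. The difference between the feeding effects of CCK+ and CCK- cells was also called for 0 of 9, where 0.00454% of all genes were called. Trpa1 (1.84, adjusted p = 0.763) and Trpm4 (-0.72, adjusted p = 0.739) were the 2 members with an unadjusted p under 0.05 in that test by limma, where 6.25% of all genes had one. A feeding effect particular to CCK+ cells was therefore not shown for any member. Of the 24 other family members, 0 were called in any of these 3 tests by limma, with 3, 4 and 2 at an unadjusted p under 0.05, where 16.95%, 11.95% and 6.25% of all genes were.

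The droplet library shows which EECs hold these transcripts. It held 9451 cells with more than 1000 genes and under 10% mitochondrial unique molecular identifiers (UMIs), with a median of 5984 UMIs. Cells were placed in the first of 5 groups they met, by UMIs per 10000: Cck of at least 500 (1246 cells), Tph1 of at least 10 with Tac1 of at least 30 (156) or under 30 (2336), Gip, Ghrl or Sst of at least 500 (321), and the rest (5392). The rest were mainly cells with goblet markers (3927). The Cell Ranger UMI limit of 3892 for calling cells was reached by 7129 of the 9451 cells. In the order of the groups, these were 1125, 55, 751, 290 and 4908 cells, so most Tph1 cells that were not Cck-high lay below that limit. Since there is 1 library, no test was possible, and all intervals are 95% intervals for counting error only. Free RNA, measured in barcodes with 1 to 100 UMIs, is given beside the levels because it enters every droplet.

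**Figure D3:**
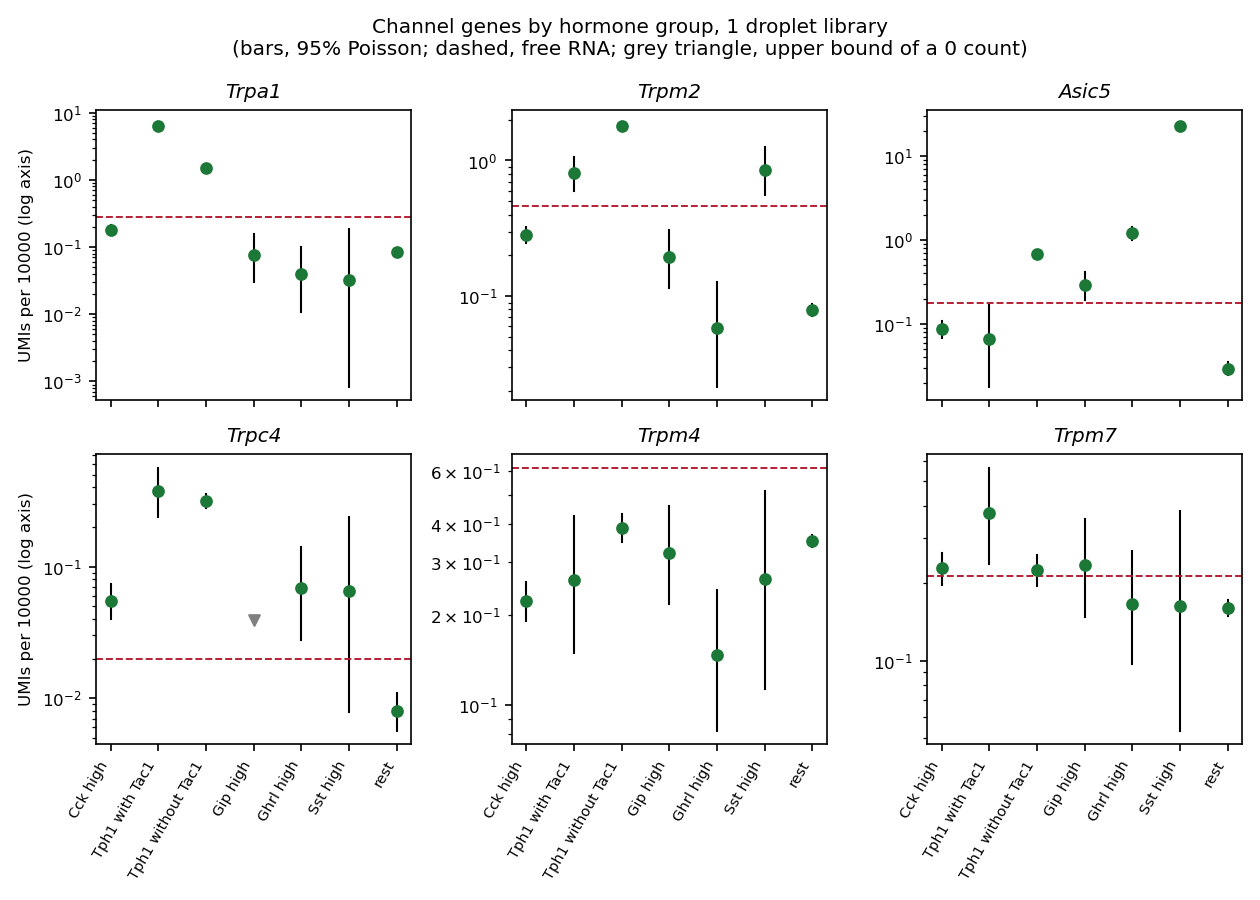
UMIs per 10000 of 6 channel genes (log axis) in the hormone groups of the droplet library, with the Gip, Ghrl and Sst cells apart; bars are 95% Poisson intervals, the dashed line is the level in free RNA and the grey triangle the upper bound of a count of 0. Trpa1 is highest with Tph1 and Tac1, Asic5 with Sst, and Trpm4 stays below its free RNA level everywhere.

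Trpa1 was mainly a transcript of Tph1 cells and was highest where Tac1, the gene of substance P, was also high. Its level was 6.24 UMIs per 10000 (5.63 to 6.90) in Tph1 cells with Tac1 and 1.498 (1.42 to 1.58) in Tph1 cells without, against 0.18 in Cck-high cells, 0.053 in Gip, Ghrl or Sst cells and 0.085 in the rest, all 3 of them below the 0.28 of free RNA. Within the rest, the 93 cells that no marker list placed were at 0.52 (0.37 to 0.71), above free RNA. A Trpa1 UMI was found in 81.4% of Tph1 cells with Tac1 (74.4 to 87.2%; median 3385 UMIs per cell) and in 31.0% of those without (29.2 to 33.0%; median 3208), against 3.54% of goblet-marker cells (median 6775). After thinning to 2000 UMIs per cell the shares were 74.8%, 22.4% and 1.40%. Tph1 cells without Tac1 by this limit were nevertheless so numerous that they held 59.0% of all 2281 Trpa1 UMIs. Those with Tac1 held 16.7%. The 1478 Tph1 cells with no Tac1 UMI at all held 457 UMIs of Trpa1.

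Within Tph1 cells Trpa1 was higher where Tac1 was higher, up to the last bin. It was 0.84 UMIs per 10000 in 1478 cells with no Tac1 UMI, 1.87 in 657 cells under 10 UMIs of Tac1 per 10000, 4.87 in 201 cells at 10 to 30, 6.56 in 128 cells at 30 to 100 and 4.59 in 28 cells above. Asic5 had the opposite order in the first 4 bins, at 0.86, 0.46, 0.13 and 0.059, and was at 0.10, from 1 UMI, in the last. Trpm2 stayed at 1.85, 1.69 and 1.65 in the first 3 bins and was at 0.88 and 0.40 in the last 2, and Trpc4 varied between 0.28 and 0.60 without order. Median depth was similar in all bins, 3128 to 3494 UMIs per cell.

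**Figure D4:**
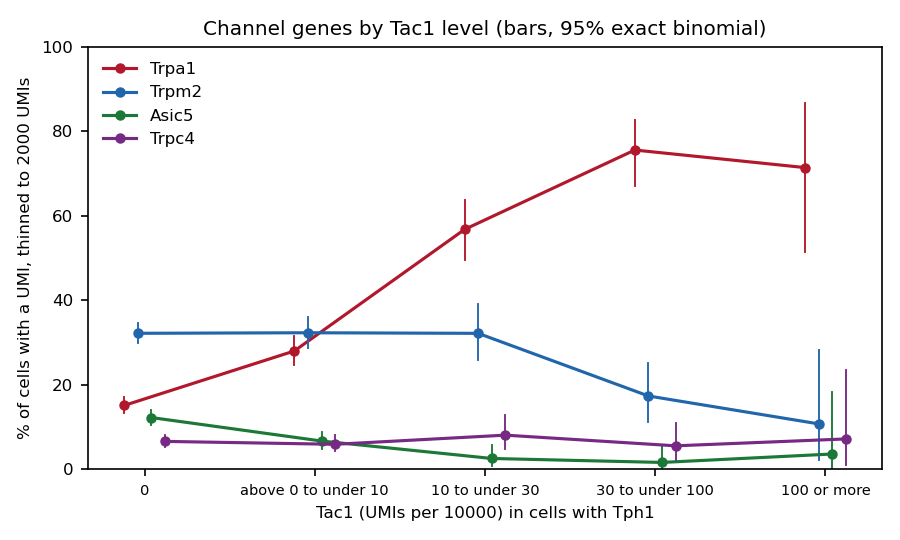
Share of Tph1 cells with a UMI of Trpa1, Trpm2, Asic5 or Trpc4 after thinning to 2000 UMIs per cell, by the level of Tac1; bars are 95% exact binomial intervals. The share goes from 15.1% to 75.6% for Trpa1 up to 100 Tac1 UMIs per 10000, and from 12.2% to 1.57% for Asic5.

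The same cells divided by secretin (Sct), a hormone gene of the EC cells with little Tac1, gave the opposite order. These bins, like the divisions by Tac1 bin, Sst and within the Cck-high cells, were chosen after the data were seen. Trpa1 was at 3.81 UMIs per 10000 in 314 cells with Sct under 100 UMIs per 10000, at 2.07 in 943 cells at 100 to 300 and at 0.83 in 1235 cells above. Asic5 was at 0.074, 0.59 and 0.88, and Trpm2 at 0.82, 1.79 and 2.00, in the same order. Trpa1 and Asic5 were thus highest at opposite ends of the Tph1 cells.

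Cck-high cells were not uniform for Trpa1. The 268 of them that also met the Tph1 limit had 0.41 UMIs per 10000 (15.3% of cells), the 273 others with Gcg or Pyy of at least 30 had 0.27 (13.2%), and the remaining 705 had 0.066 (3.26%), close to the 3.54% of goblet-marker cells. The first of these levels was above that of free RNA (0.28, 0.21 to 0.36), though its interval of 0.32 to 0.52 overlapped it, and the third was below. In the sorted CCK+ libraries Trpa1 stood beside Tph1 at 4994 to 21360 and Tac1 at 127 to 826 normalized counts.

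Asic5 was concentrated in cells with somatostatin (Sst), the inhibitory hormone of D cells. The 54 Sst-high cells held 691 of its 1658 UMIs, a level of 22.6 UMIs per 10000 (21.0 to 24.4) against 0.18 in free RNA. An Asic5 UMI was found in 53 of 54 of these cells (98.1%; median 5413 UMIs), in 88.9% after thinning, and in 1.55% of goblet-marker cells (median 6775). The 134 Ghrl-high cells had 1.20 UMIs per 10000 (26.1% of cells) and the 133 Gip-high cells 0.29 (12.03%), the latter with an interval of 0.19 to 0.42 that overlapped free RNA. All 6 Sst-high cells that belonged to the Cck or Tph1 groups held it too.

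Outside the Sst-high group, Asic5 was present in Tph1 cells without Tac1, some of which held Sst UMIs, at 0.67 UMIs per 10000 (0.62 to 0.73; 14.5% of cells). In Cck-high cells as a whole and the rest it was at 0.086 and 0.029, below free RNA. The Cck-high cells that met the Tph1 limit had 0.20 (0.14 to 0.28), close to the 0.18 of free RNA. Of the Tph1 cells, 1771 held no Sst UMI and still had 0.49 UMIs of Asic5 per 10000 (11.97% of cells), and 30 with Sst of at least 10 UMIs per 10000 had 5.98. The sorted CCK+ libraries, in which Asic5 was high, held Sst at 2812 to 8925 normalized counts against 18.2 to 128 in CCK- libraries.

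Trpm2 and Trpc4 were also found mainly in Tph1 cells. Trpm2 was at 1.78 UMIs per 10000 (1.70 to 1.87) in Tph1 cells without Tac1, in 48.0% of cells or 32.2% after thinning, and at 0.80 in those with Tac1. It was at 0.85 in Sst-high cells (40.7% of cells) and at 0.61 in Cck-high cells that met the Tph1 limit, whereas Cck-high cells as a whole (0.28), Ghrl-high cells (0.059) and the rest (0.079) were below free RNA (0.46). Trpc4 was at 0.38 (0.24 to 0.56) in Tph1 cells with Tac1 and 0.31 (0.28 to 0.35) without, with a UMI in 12.8% and 11.0% of cells, against 0.055 in Cck-high cells, 0.0080 in the rest and 0.020 in free RNA. The Cck-high cells that met the Tph1 limit had 0.134 (0.086 to 0.200), above free RNA (0.0054 to 0.051), and the others 0.018 with Gcg or Pyy and 0.037 without. Tph1 cells without Tac1 held 69.7% of Trpm2 and 71.2% of Trpc4 UMIs.

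Trpm4 and Trpm7 were not confined to any hormone group. Trpm4 was between 0.22 (Cck-high cells) and 0.39 (Tph1 cells without Tac1) UMIs per 10000 in the 5 groups, all below its 0.62 in free RNA. Its highest level among the rest was 0.44 in goblet-marker cells, which had 26.4% of cells with a UMI. Trpm7 was between 0.16 (rest) and 0.38 (Tph1 cells with Tac1), against 0.21 in free RNA. It was at 0.29 in crypt-marker cells, 0.135 in goblet-marker cells (0.122 to 0.150) and 0.030 in Paneth-marker cells (0.018 to 0.048). Cck-high cells had 0.24 where they met the Tph1 limit, 0.21 in the others with Gcg or Pyy and 0.23 in the remainder. They were thus not below goblet-marker cells, whereas bulk CCK+ libraries had less Trpm7 than CCK- libraries. Over the Tac1 bins of Tph1 cells, Trpm7 was at 0.20, 0.24, 0.37, 0.33 and 0.60, the last from 6 UMIs. The rest held 73.0% of the Trpm4 and 61.8% of the Trpm7 UMIs.

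The remaining 3 members were scarcely detected at this depth. Trpv6 had 62 UMIs in 60 cells, and its highest level was 0.028 (0.015 to 0.048) in 480 enterocyte-marker cells, of which 13 held a UMI (2.71%), which did not exceed the 0.050 of free RNA. Piezo1 had 25 UMIs in 24 cells, 10 of them crypt-marker cells (2.28% of these 438). Piezo2, known as a force sensor of EC cells, had 0 UMIs in the 9451 cells and likewise in all 475960 barcodes. Taken as 3 cells of the total, a count of 0 allows up to 1.92% of the 156 Tph1 cells with Tac1, and up to 0.128% of the 2336 without, to hold one. These limits bound cells with a UMI at this depth and not cells that express the gene.

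Other channels of the families had distinct hosts. Trpm5, the channel of taste signaling, was at 6.36 UMIs per 10000 (5.88 to 6.87) in 196 tuft-marker cells, 92.9% of which held a UMI, and at 0.063 to 0.19 in the 4 hormone groups. Trpc7 was highest in Tph1 cells with Tac1 (0.39, 0.25 to 0.58) against 0.063 in those without, Trpc5 was at 0.20 in Tph1 cells with Tac1 and 0.36 in Gip-high cells, and Trpc1 was at 0.16 in Gip, Ghrl or Sst cells and 0.14 in Cck-high cells. Trpm5 thus had its highest level outside the hormone groups and Trpc1, Trpc5 and Trpc7 within them, whereas Trpc2 and Trpc6 had 0 UMIs in the 9451 cells.

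Genes with the most similar patterns were taken by Pearson's r, as a description. Over the 12 bulk libraries, which fall into CCK+ and CCK- sets, Trpa1 was most like Rpp25, Shisa2 and Olfm1 (0.990 to 0.993), Trpm2 like Man1c1, Ccdc3 and Hepacam2 (0.994), Trpc4 like Gatm, Trpm2 and Ikzf4 (0.987 to 0.990), and Asic5 like Ubqln2, Kcnq1 and Cacna2d1 (0.986 to 0.990). Trpm4 was most like Clcn2, Slc7a9 and Mtmr4 (0.965 to 0.967), Trpm7 like Ermp1, Cops3 and Copa (0.935 to 0.941), Trpv6 like Dglucy, Ms4a8a and Insl6 (0.955 to 0.968), Piezo1 like Rbm12, Lsm11 and Exosc7 (0.902 to 0.946), and Piezo2 like Gnat1, Gm16580 and Mef2d (0.766 to 0.847). Over the 5 droplet groups the genes most like Trpa1 included Mzt1, Riok1, Clta and Hist2h2aa1, those most like Trpc4 were Dhx40, Dlgap4, Ddit4, Tle3 and Nufip1, those most like Trpm2 included Pja1, Slu7, Nemf and Laptm4a, and those most like Asic5 were Pcsk2, Arhgap10, Tmem186, Slf1 and Ndrg3. The values of r were 0.983 or more, but they rest on only 5 points, with 12232 genes compared, and Piezo2 had no UMI to compare.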

How the data were processed

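The bulk signal values are those the authors deposited: gene counts from Salmon 1.6.0 on the GRCm39 cDNA transcriptome, after Trim Galore 0.6.7, scaled with DESeq2 normalization factors, and hence fractional. The droplet values are UMI counts from Cell Ranger 2.0.1 on mm10, as deposited, for all barcodes. The public titles name CCK+ cells for all 4 bulk groups, and the cell-type labels, which give 2 CCK+ and 2 CCK- groups, were used. The bulk libraries summed to 7061155 to 11371114 normalized counts.

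For all 22042 bulk genes, log2(normalized count + 1) was fitted with limma 3.58.1 in R 4.3.3, with 1 mean per group, a mean-variance trend, 8 residual degrees of freedom and Benjamini-Hochberg adjustment. With 3 mice per group, p-values rest on the spread between libraries within groups, pooled over the 4 groups and moderated across genes. The main fit did not use the pairing of CCK+ and CCK- libraries by mouse. The letter of a library was taken as the mouse, because each letter names 1 CCK+ and 1 CCK- library; the labels do not state it. After subtraction of group means, libraries with the same letter correlated over genes at 0.0463 to 0.065 and others at -0.0455 to -0.00973. The alternatives were added counts of 0.5 and 10, a filter of a mean of 10, equal library sums, no trend, the mouse as a block and each library left out.

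Droplet cells were handled in Python 3.11.15 with numpy 2.4.6 and scipy 1.17.1. Levels carry exact Poisson and shares exact Clopper-Pearson intervals. No doublet caller was run; cells meeting more than 1 hormone rule (505) or the 5% with the most UMIs were left out as alternatives, and other limits on genes, hormones and UMIs were tried. Cells of the rest group were divided by marker lists for goblet, enterocyte, Paneth, tuft and crypt cells. The named genes were the 9 members, every called gene of the family list, Trpm5 in droplet cells, and the 3 (bulk) or 5 (droplet) most similar genes, some of which are not reported here. The members and lists were chosen with earlier results of these data known. The tests and intervals were tested on simulated data.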

Additional observations from a re-analysis of the deposited data

How the results depend on the processing

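In CCK+ against CCK-, 7 members were called under all 6 other settings and without any library. Scaling to equal sums exchanged the call of Trpm4 for that of Piezo1 and turned Piezo2 to 0.18. For refeeding in CCK+ cells 2 members were called with an added count of 10, 0 without the trend and 0 to 1 with a library left out; all genes called fell from 561 to 119 without the trend and ranged from 103 to 876 with a library left out (CCK- cells, 272 to 66 and 79 to 268; difference between effects, 1 to 2 and 1 to 6). In CCK- cells Trpa1 turned to 0.088 (added count of 10) and 0.063 (equal sums) and Asic5 to 0.007 (added count of 10). Without 1 library, values of uncalled members changed sign: Piezo2 ranged from -0.481 to 0.088 (CCK+ against CCK-) and -0.21 to 0.93 (fasted). For refeeding in CCK+ cells Trpm7 ranged from -0.024 to 0.509 and Trpv6 from -1.22 to 0.18. In CCK- cells the ranges were -0.69 to 0.62 for Trpa1, -0.028 to 0.584 for Trpm2, -0.45 to 0.20 for Trpv6, -0.15 to 0.98 for Piezo2 and -0.43 to 0.40 for Asic5. For the difference between effects they were -0.27 to 0.26 for Trpm7, -1.004 to 0.389 for Trpv6 and -0.26 to 0.63 for Piezo1. The mouse as a block changed no member's call. Shares of cells with a Trpa1 UMI were 74.2% (Tac1 limit of 10) and 59.0% (2 UMIs) in Tph1 cells with Tac1. In those without they were 28.6% (500 genes), 36.2% (1500 genes), 34.5% (Cell Ranger limit), 27.5% (Tac1 limit of 10), 12.6% (2 UMIs) and 22.4% (thinned). In Cck-high cells they were 5.65% (without cells of more than 1 rule), 2.41% (2 UMIs) and 2.89% (thinned), and in the rest 2.62% (500 genes), 5.13% (1500 genes), 3.71% (Cell Ranger limit), 6.57% (Tph1 limit of 20), 1.35% (2 UMIs) and 1.71% (thinned). Asic5 in Sst-high cells was 88.9% when thinned. The causes were not tested. Trpv6, Piezo1 and Piezo2 had 62, 25 and 0 UMIs in all droplet cells, too few to compare groups.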

Other observations

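The counts of cells with UMIs of more than 1 channel gene are given without a test, since the genes share Tph1 cells and free RNA enters every droplet. Of 1196 cells with a Trpa1 UMI, 478 also held one of Trpm2, 124 one of Trpc4 and 80 one of Asic5, and of 608 cells with an Asic5 UMI 229 also held one of Trpm2.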
